A study of Homo sapiens with 24 samples.

Results

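The wide H3K9ac sites are the regions of a differential-binding table that are broader than its smallest window of 501 bp. They numbered 472 of the 2191 sites in the table, or 21.5%, and the other 1719 sites all had the width of 501 bp. Among the sites of the table, members were chosen by width alone. All sites in the table had passed the authors' limit, a false discovery rate (FDR) under 0.1 between control and HAT1-depleted cells. The difference between cells had thus already decided which sites could be members. The assay was ChIP-seq, sequencing of immunoprecipitated chromatin, in hTert-HME1, a telomerase-immortalised human mammary epithelial line grown in mammary epithelial medium. The H3K9ac comparison had 3 libraries of cells with a control hairpin (shControl, titled shCon2, shCon3 and shCon5) and 3 of cells with a hairpin against HAT1 (shHAT1, titled A7, B6 and C5). What these title suffixes stand for, and whether they are separate cultures or clones, is not given in the labels. The Rbap46 comparison used 2 Rbap46 and 2 input libraries of untreated cells.

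HAT1 is a histone acetyltransferase that acts on newly made histone H4, and Rbap46 (RBBP7) is the histone-binding chaperone in its complex. H3K9ac, acetylation of lysine 9 of histone H3, marks nucleosomes next to active promoters and enhancers. At an active promoter the start site itself is usually depleted of nucleosomes, so that acetylated nucleosomes flank it on both sides. A ChIP-seq signal with several summits close together is therefore a familiar shape at promoters.

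The deposited values were group means, as log2 normalized read concentrations summed over a site, called the level here. No value per library was used, depth per library is unknown, and no SD or test over libraries could be computed. Sites are not replicates of a condition, so differences between wide and 501-bp sites are given as descriptions with no p-value. Positions are those of the files, build hg19 per the submitters' processing notes, and are given without gene names, since no annotation of that build was used here. The input of the Rbap46 table was uneven along the genome. On chromosome 22 from 19 to 24 Mb the median input level was 7.47 over 184 sites of the Rbap46 table, against 5.50 over the other 571. The shControl H3K9ac level there was 9.28 over 4 sites, of which 1 was wide, against 9.42 over the other 41. Whether both sets of libraries come from the same cells was not tested. Some results that join the tables are also given without chromosomes 9 and 22. These are the level-matched shares with Rbap46 overlap and with a central Rbap46 site, and the gap between wide sites with and without Rbap46. The other joined results include both chromosomes.

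The widths were not spread evenly. No site was between 502 and 792 bp wide, and 429 of the 472 wide sites, or 90.9%, lay between 793 and 1000 bp. The median width was 944 bp, with quartiles of 911 and 979 bp. After a gap, a further 43 sites were 1089 to 1931 bp wide, and 33 of these lay between 1200 and 1399 bp. Read as a pair of overlapping 501-bp windows, a site of up to 1000 bp has window centres 292 to 499 bp apart, with a median of 438 bp. That wide sites arose by joining overlapping windows is inferred from these widths and is not stated in the labels. Wide sites covered 458 kb, or 34.7% of the 1320 kb in the table.

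**Figure D1:**
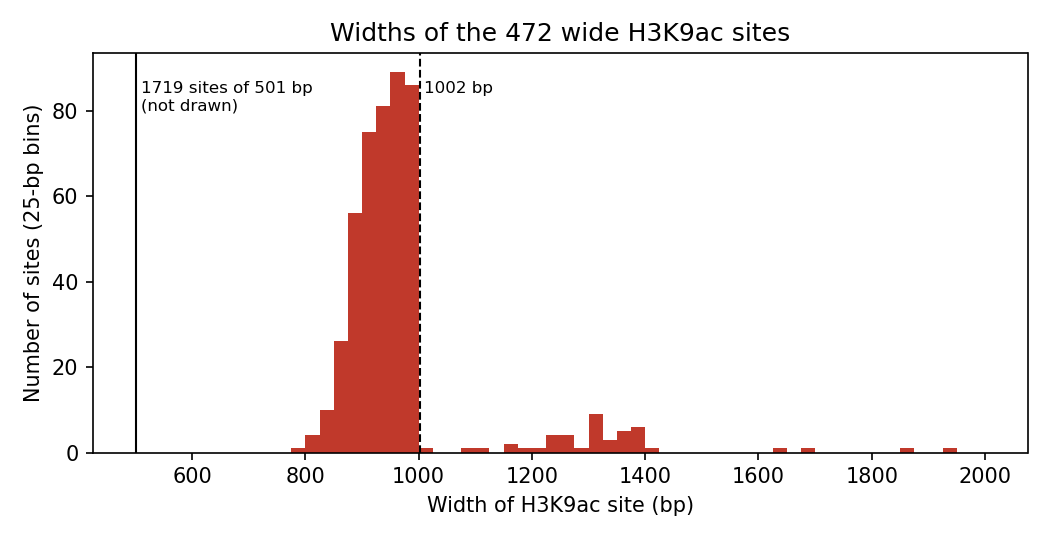
Histogram of site width (x axis, bp) against number of sites in 25-bp bins (y axis) for the 472 wide H3K9ac sites, with the solid line at 501 bp and the dashed line at 1002 bp. Most sites lie between 793 and 1000 bp, none lie between 502 and 792 bp, and a smaller set of 43 sites begins at 1089 bp.

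The sites just above the threshold in width lay on chromosomes 19 and 16. The narrowest of them, chr19:4724008-4724800, was 793 bp wide, and its shControl and shHAT1 levels were 8.07 and 7.22. The next, chr16:21531431-21532243, was 813 bp wide, with levels of 10.32 and 9.66. The site chr19:10811683-10812499 was 817 bp wide, with levels of 9.37 and 8.83. Just below the threshold all 1719 sites share 501 bp, with a median shControl level of 9.18. The shControl levels of these 3 sites thus lay on both sides of the median of 9.575 for wide sites, and each site overlapped Rbap46.

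Wide sites held more H3K9ac reads in total but fewer per base than 501-bp sites. The shControl level of wide sites ranged from 7.03 to 11.73, with a median of 9.575 and quartiles of 9.05 and 10.002. The 501-bp sites ranged from 7.02 to 11.92, with a median of 9.18 and quartiles of 8.67 and 9.70. The ranges overlapped almost fully, while the medians differed by 0.395. Scaled to 501 bp of length, the median of wide sites was 8.63, or -0.55 relative to the 501-bp sites. The sign of the difference in level therefore depends on whether length is taken into account. The share of wide sites was larger at higher levels of the whole site, going from 9.82% in the lowest decile of shControl level (22 wide and 202 of 501 bp) to 37.7% in the highest (81 wide and 134 of 501 bp).

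Nearly all wide sites that were called had lower H3K9ac in HAT1-depleted cells. Of the 472, 468 were lower in shHAT1 cells and 4 were higher at the authors' FDR under 0.1. Over all sites the authors tested, of which there were about 12048, 18.2% were called, 18.0% as lower and 0.141% as higher. The width of sites that were not called is not in the table, so the share of wide sites that changed cannot be given. Among 501-bp sites 1706 were lower and 13 higher, which is 0.756% higher against 0.847% of wide sites. Averaged over deciles of shControl level with the wide sites as weights, these shares were 0.300% of 501-bp and 0.847% of wide sites. All 17 higher sites lay in the lowest decile of shControl level. That decile held 22 wide sites, of which 4 were higher, and 202 sites of 501 bp, of which 13 were higher. These counts are small.

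The difference between shHAT1 and shControl levels at wide sites ranged from -4.57 to 1.22, with a median of -0.745 and quartiles of -0.87 and -0.63. This median is a 1.68-fold lower signal. At 501-bp sites the median was -0.78, a 1.72-fold lower signal, with quartiles of -0.95 and -0.65. A loss of at least 1 on the log2 scale was seen at 57 wide sites (12.1%) and at 345 sites of 501 bp (20.1%). Losses among these called sites were larger at low levels, and wide sites had the higher levels. The smallest loss that passed the FDR limit was also larger at low levels, 0.55 in the lowest decile against 0.40 in the highest. How far the limit accounts for the trend with level was not tested. Averaged over deciles of shControl level with the wide sites as weights, the median difference was -0.74 in wide and -0.76 in 501-bp sites, which leaves 0.012. The wide sites had the smaller loss in 6 deciles and the larger in 4, with gaps between -0.03 and 0.12. The largest gap, 0.12, belonged to the lowest decile, which had the fewest wide sites. The gap depended on how level was matched. It was 0.106 when matched on level per 501 bp of length, and 4 alternatives turned its sign, with values from -0.0095 to -0.0010.

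**Figure D2:**
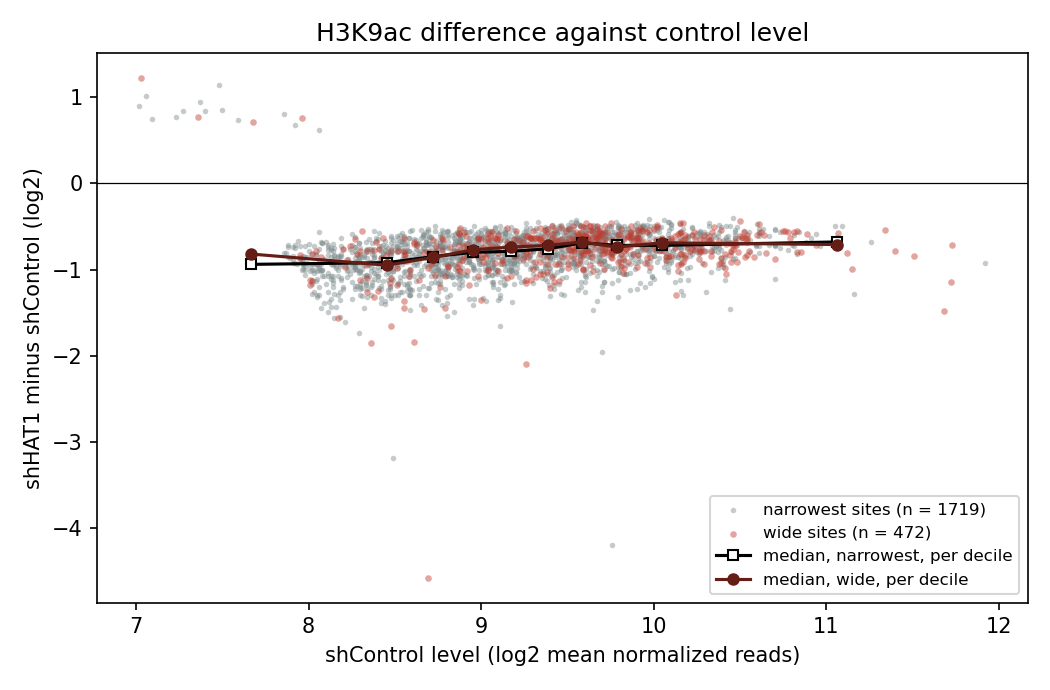
Difference in H3K9ac between shHAT1 and shControl cells (y axis, log2) against shControl level (x axis, log2 mean normalized reads) for each wide (red) and 501-bp (grey) site, with the medians per decile of level drawn as lines at the middle of each decile's range. Both lines run from near -0.9 at low levels to near -0.7 at high levels, and the few sites above 0 lie at the left.

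The smallest FDR values were mostly at 501-bp sites. At FDR under 0.05, 157 wide sites (33.3%) and 638 sites of 501 bp (37.1%) were left. These are shares of sites already called at FDR under 0.1, of which 36.3% were left in all. Of all sites tested, called or not, 6.60% had an FDR under 0.05. With level matched the shares of wide and 501-bp sites were 33.3% and 40.2%. The gap was widest at low levels, with 16.5% of 79 wide and 29.3% of 580 sites of 501 bp in the lowest 3 deciles. In the highest 3 deciles the shares were 42.9% of 198 and 46.9% of 454. At FDR under 0.01, 3 wide sites and 41 sites of 501 bp were left. The smallest loss present in the table was 0.55 in the lowest decile and 0.40 in the highest.

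Rbap46 sites above input, called by the authors at FDR under 0.05, numbered 30418, or 37.6% of about 80829 sites tested. At least 1 of them overlapped 396 of the 472 wide H3K9ac sites, or 83.9%, by 1 bp or more. The share among 501-bp sites was 74.0% (1272 of 1719), and 78.5% when weighted to the levels of the wide sites. A longer site can meet more Rbap46 sites by its length alone. When each wide site was reduced to its central 501 bp, 382 or 80.9% still overlapped, which is 2.42 percentage points above the matched share of 501-bp sites. The difference for whole sites was 5.39 percentage points matched on level, and 18.6 matched on level per 501 bp. Without chromosomes 9 and 22 the matched difference for whole sites was 4.58 percentage points.

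The difference in overlap varied with level. In the lowest 3 deciles of shControl level, 43 of 79 wide sites (54.4%) and 350 of 580 sites of 501 bp (60.3%) overlapped Rbap46. In the middle 4 deciles the shares were 85.1% and 78.7%, and in the highest 3 they were 94.4% (187 of 198) and 84.4% (383 of 454). The wide sites had the higher share in 7 of 10 deciles, with differences from -13.7 to 18.1 percentage points.

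Most wide sites carried a single Rbap46 site. There were 76 wide sites with none, 376 with 1 and 20 with 2, a mean of 0.881 per site. Among 501-bp sites 447 had none, 1250 had 1 and 22 had 2, a mean of 0.753. Per kb of H3K9ac site the order turned round, with 0.908 Rbap46 sites in wide and 1.502 in 501-bp sites. Overlap was counted from 1 bp, so Rbap46 sites that reach past an edge are included. This raises the number per kb more in shorter sites. A pair of Rbap46 sites, present at 20 wide sites and 22 sites of 501 bp, was rare at either width.

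The Rbap46 peak mostly lay near the middle of the wide sites it overlapped. The distance between the centres of the H3K9ac site and of its nearest Rbap46 site had a median of 124.5 bp in the 396 overlapping wide sites, with quartiles of 60.6 and 202 bp. In the 1272 overlapping 501-bp sites it was 171.5 bp, with quartiles of 74 and 296 bp, although these sites are shorter. As a share of the distance from the centre to the edge, the medians were 26.8% and 68.5%. Overlap was counted from 1 bp, so an Rbap46 centre can lie beyond the edge. The largest possible share is therefore higher for the shorter sites, which adds to this difference. The Rbap46 centre lay to the right of the site centre in 202 and to the left in 193 wide sites, so no side was favoured.

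A distance limit that is the same for both widths was also applied. An Rbap46 centre lay within 250 bp of the site centre in 334 of all 472 wide sites (70.8%) and in 854 of all 1719 sites of 501 bp (49.7%). With level matched the shares were 70.8% and 53.7%, a difference of 17.0 percentage points, or of 29.2 when matched on level per 501 bp. The wide sites had the higher share in 10 of 10 deciles, by 1.06 to 25.4 percentage points. Without chromosomes 9 and 22 the matched difference was 16.2 percentage points. The measure was chosen after the positions were seen.

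**Figure D3:**
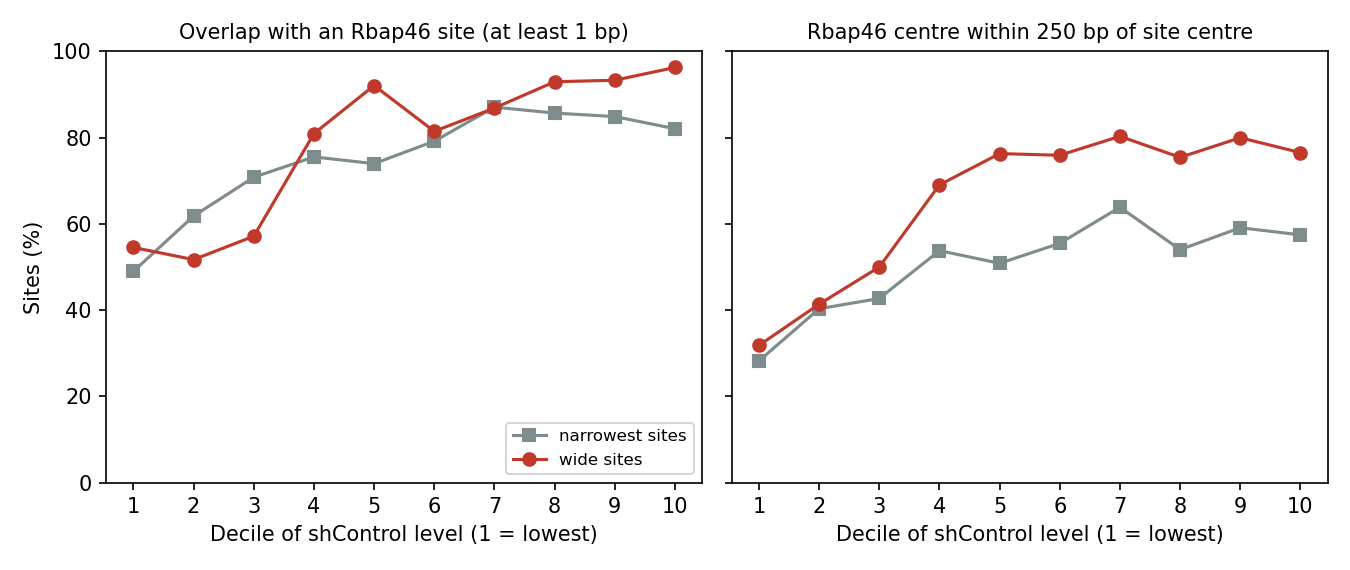
Share of H3K9ac sites (y axis, %) in each decile of shControl level (x axis, 1 is lowest) that overlap an Rbap46 site by at least 1 bp (left) or have an Rbap46 centre within 250 bp of their own centre (right), for wide sites (red) and 501-bp sites (grey). On the left the lines cross at low levels, and on the right the wide sites lie above in 10 of 10 deciles.

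**Figure D4:**
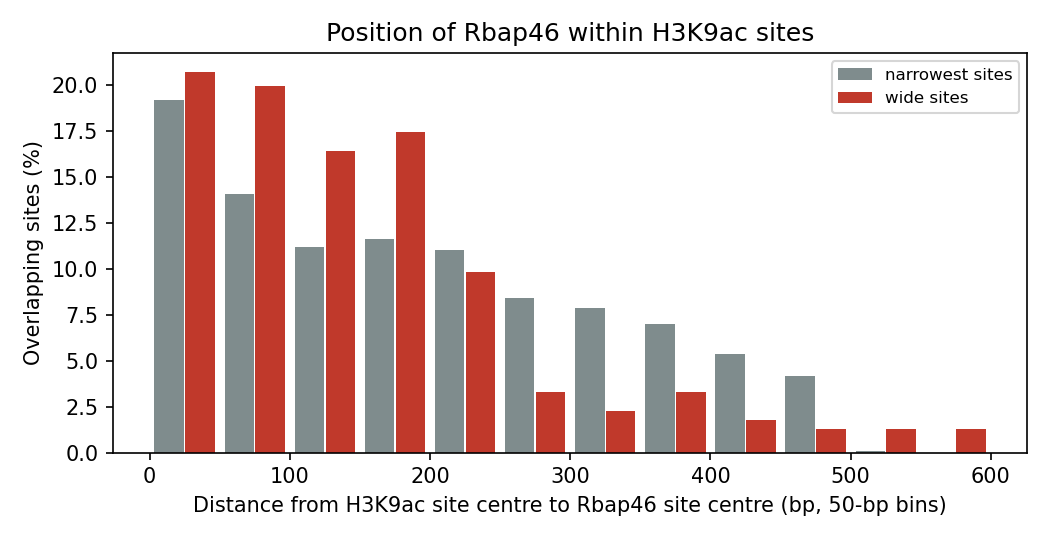
Distance between the centres of an H3K9ac site and its nearest Rbap46 site (x axis, bp, in 50-bp bins) as a share of overlapping sites (y axis, %), for 396 wide (red) and 1272 sites of 501 bp (grey). In wide sites 84.3% of distances are within 250 bp, against 67.1% in 501-bp sites, and 5 wide sites and 1 site of 501 bp beyond 600 bp are not drawn.

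In wide sites of up to 1000 bp the Rbap46 centre mostly fell between the centres of their first and last 501 bp. Of 351 such sites with 1 Rbap46 site, 288 or 82.1% had it there, a stretch that made up a median of 46.6% of their length. It lay outside in 63. The median H3K9ac difference was -0.70 in the former and -0.76 in the latter, at median shControl levels of 9.63 and 9.72. Of 25 sites above 1002 bp with 1 Rbap46 site, 19 or 76.0% had its centre between those of their first and last 501 bp. That stretch made up a median of 61.9% of their length. A fixed limit of 250 bp covers a smaller part of a longer site, and the shares that follow include sites without Rbap46. An Rbap46 centre lay within 250 bp of the site centre in 76.0% of the 100 sites up to 900 bp, in 81.5% of the 157 from 901 to 950 bp, in 64.5% of the 172 from 951 to 1000 bp and in 44.2% of the 43 from 1089 bp.

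Rbap46 enrichment was of similar size at wide and 501-bp sites. Rbap46 sites nearest to the centre of overlapping wide sites had a median log2 fold over input of 1.17 as listed in the authors' deposited table, with quartiles of 0.99 and 1.41. For 501-bp sites the median was 1.18, with quartiles of 0.96 and 1.46, as listed in the authors' deposited table. With H3K9ac level matched the medians were 1.17 and 1.196. All 30418 Rbap46 sites of the authors' deposited table had a median of 1.05, below both. At these peaks the median Rbap46 level was 7.77 at wide and 7.69 at 501-bp sites, and the median input level 6.545 and 6.48, so neither quantity differed by more than 0.1.

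Wide sites without Rbap46 had a lower median level of H3K9ac and a larger median loss. The 76 sites had a median shControl level of 8.91 and a median difference of -0.935, with quartiles of -1.08 and -0.82. The 376 sites with 1 Rbap46 site had a level of 9.635 and a difference of -0.72, with quartiles of -0.83 and -0.61. The 20 sites with 2 had 9.585 and -0.685. A loss of at least 1 was seen at 31 of 76 sites without Rbap46 (40.8%), and at 24 of 376 with 1 (6.38%). Within 5 bins of shControl level the medians were -0.72 with and -0.88 without Rbap46, a gap of 0.16, and 0.17 without chromosomes 9 and 22. The same gap in 501-bp sites was 0.061, and the difference between these gaps was not tested. At FDR under 0.05 the shares were alike, with 25 of 76 (32.9%) and 127 of 376 (33.8%).

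The nearest Rbap46 centre was a median of 15.03 kb from the 76 wide sites without overlap, with quartiles of 3.16 and 42.9 kb. It was within 2 kb at 17 of them and over 10 kb away at 45. For the 447 sites of 501 bp without overlap the median was 1.90 kb, and 227 (50.8%) were within 2 kb, against 22.4% of these wide sites. A longer site without overlap is by its length farther from the nearest centre, with smallest distances of 779.5 bp in wide and 502 bp in 501-bp sites. Level was not matched here, and the cause of the difference was not tested.

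**Figure D5:**
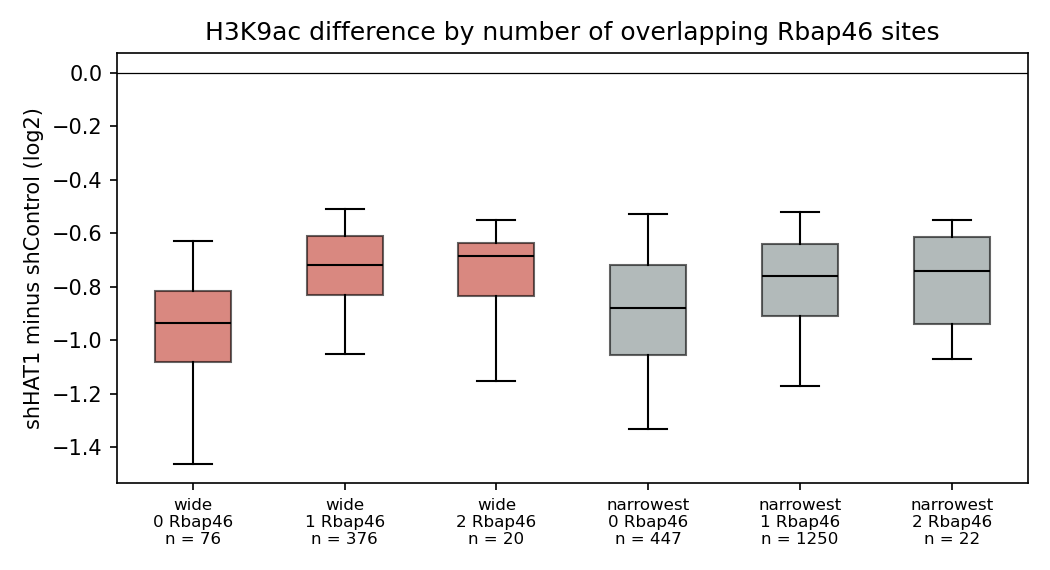
Difference in H3K9ac between shHAT1 and shControl cells (y axis, log2) for wide (red) and 501-bp (grey) sites grouped by number of overlapping Rbap46 sites (x axis), with boxes from the lower to the upper quartile, the median as a line and whiskers from the 5th to the 95th percentile. The box of the 76 wide sites without Rbap46, with a median of -0.935, lies lower than those with 1 or 2, with medians of -0.72 and -0.685.

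Wide sites had fewer close neighbours among the changed sites. Another H3K9ac site of the table lay within 2 kb of 38 wide sites (8.05%) and of 424 sites of 501 bp (24.7%). The median distance to the nearest neighbour was 120 kb for wide and 85.2 kb for 501-bp sites. The lower quartile differed far more, at 34.6 kb and 2.43 kb. If wide sites are joined windows, some close neighbours would be part of them, and the share of this in the difference was not tested.

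All 23 chromosomes with H3K9ac sites had wide ones. The share ranged from 13.3% on chromosome 22 (6 of 45) to 34.5% on chromosome 14 (10 of 29), around 21.5% in all. Chromosome 16 had the most, 62 of 214, followed by chromosome 1 with 49 of 213. The 472 sites fell into 358 windows of 1 Mb, of which 279 held a single one. The fullest window, 2 to 3 Mb of chromosome 16, held 8 wide among 21 sites, with differences from -1.16 to -0.55 and Rbap46 at 7 of the 8. The window from 139 to 140 Mb of chromosome 9 held 5, with differences from -1.56 to -0.74 and Rbap46 at all 5. The 4 wide sites from 136 to 137 Mb of chromosome 9 had differences from -1.48 to -1.21, and all 4 thus lost more than the lower quartile of wide sites. The 4 from 85 to 86 Mb of chromosome 2 had differences from -0.65 to -0.58, and these were the 4 sites of that window. These windows were chosen after their values were seen.

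The 2 Mb from 26 to 28 Mb of chromosome 6, which hold a large cluster of histone genes, had 5 wide sites and 39 of 501 bp. Their median differences were -1.05 and -1.10, both larger losses than the medians of their width over the whole table. The largest loss among the 5 was at chr6:26156089-26157055, 967 bp wide, with levels of 10.13 and 8.84, a difference of -1.29 and an FDR of 0.0135 as listed in the authors' deposited table. Its Rbap46 centre lay 50 bp from its own. At chr6:26223843-26224792 the levels were 9.29 and 8.17 and no Rbap46 site overlapped. The nearest Rbap46 centre was 7.37 kb away. This region was chosen with earlier results of these data known, so its losses are no independent evidence.

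The widest site of all was chr7:28218924-28220854 with 1931 bp. Its levels were 9 and 8.35, its difference -0.65 and the authors' deposited table lists an FDR of 0.0636. Per 501 bp its shControl level was 7.05, below the median of 8.63 of wide sites, and the nearest Rbap46 centre was 143 kb away. The next widest, chr12:54673058-54674914 with 1857 bp, had levels of 11.72 and 10.57, a difference of -1.15 and an FDR of 0.0283 as listed in the authors' deposited table. It overlapped an Rbap46 site, chr12:54674191-54674691, whose Rbap46 level was 8.23 against 7.41 in input, 455 bp from its centre. The third, chr1:151167198-151168889 with 1692 bp, had levels of 9.82 and 8.78 and a difference of -1.04, with an FDR of 0.0398 as listed in the authors' deposited table. No Rbap46 site overlapped it. The 3 widest sites therefore differed in level by up to 2.72 and shared neither Rbap46 overlap nor a central Rbap46 peak.

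The highest shControl level among wide sites was at chr22:46464986-46466299, 1314 bp wide, with 11.73 in shControl and 11.02 in shHAT1 cells. Its FDR was 0.0942 as listed in the authors' deposited table, close to the limit, and it overlapped no Rbap46 site. The chromosome 12 site above came next. It was followed by chr9:136214261-136215607, 1347 bp wide, with levels of 11.68 and 10.20, a difference of -1.48 and an FDR of 0.0308 as listed in the authors' deposited table. That site also had 2 Rbap46 sites, with levels of 6.56 and 7.49 against 5.51 and 6.52 in input. All 3 were longer than 1002 bp, which adds to a level summed over length. Per 501 bp they stood at 10.34, 9.83 and 10.25.

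The largest loss was at chr6:66970079-66970949, 871 bp wide, where the level was 8.69 in shControl and 4.12 in shHAT1 cells. The difference of -4.57 is a 23.7-fold lower signal, with an FDR of 0.0172 as listed in the authors' deposited table. A 501-bp site lay 176 bp away, and the nearest Rbap46 centre 1103 kb away. The next largest loss was less than that by more than 2 on the log2 scale. It was at chr5:52777548-52778484, with levels of 9.26 and 7.17, a difference of -2.09 and an FDR of 0.0882 as listed in the authors' deposited table. That site overlapped an Rbap46 site with a log2 fold of 2.06 as listed in the authors' deposited table. At chr8:120220125-120221089 the levels were 8.36 and 6.51, a difference of -1.85, and the nearest Rbap46 centre was 624 kb away. Only 1 of these 3 sites thus overlapped Rbap46, against 83.9% of all wide sites. In the deciles of shControl level that held the 3 sites, the share of wide sites with overlap was 57.1%, 92.1% and 51.7%, in that order.

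The 3 wide sites with the smallest FDR shared a value of 0.00813 as listed in the authors' deposited table. The first, chr19:55849770-55850743, had levels of 9.30 and 8.31 and no overlapping Rbap46 site. The second, chr11:94226610-94227557, had levels of 10.42 and 9.37 and an Rbap46 centre 123.5 bp from its own. The third, chr1:186528693-186529608, had levels of 8.61 and 6.77, a difference of -1.84, and lay 184 kb from the nearest Rbap46 centre.

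By number of Rbap46 sites, with ties ordered by FDR, the first was chr11:59328049-59329216, with H3K9ac levels of 9.42 and 8.27. Its pair of Rbap46 sites had levels of 7.38 and 7.18, against 6.40 and 5.93 in input. The next, chr9:139304529-139305489, had H3K9ac levels of 10.45 and 9.54 and Rbap46 levels of 6.59 and 7.27, against 5.56 and 5.88 in input. The chromosome 9 site at 136214261, described above, was the third. At these 3 sites all 6 Rbap46 levels were below the median of 7.77 for Rbap46 sites at wide sites.

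The 4 wide sites with higher H3K9ac in shHAT1 cells all had low shControl levels and all overlapped Rbap46. Their shHAT1 levels, from 8.13 to 8.72, compare with a lower quartile of 8.29 and a median of 8.84 in all wide sites. The largest rise was at chr1:33167954-33168922, from 7.03 to 8.25, a difference of 1.22 with an FDR of 0.0379 as listed in the authors' deposited table. At chr17:60704984-60705921 the level rose from 7.36 to 8.13, with an FDR of 0.078 as listed in the authors' deposited table. At chr1:110452910-110453790 it rose from 7.96 to 8.72, with an FDR of 0.0218 as listed in the authors' deposited table. At chr11:45201810-45202674 it rose from 7.68 to 8.39, with an FDR of 0.067 as listed in the authors' deposited table. The Rbap46 centres lay 288, 533, 70.5 and 348 bp from the centres of these sites in that order. Thus 1 of the 4 was within 250 bp. That share was 70.8% among all wide sites, but 31.8% among the 22 wide sites in the lowest decile of shControl level. All 4 belonged to that decile. The widths of the 4, which were 969, 938, 881 and 865 bp, lay within the common range.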

How the data were processed

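The series has 24 libraries in 9 groups, and 4 groups with 10 libraries were used. Libraries were grouped by their titles. Both deposited tables have the layout of a DiffBind report, per the file headers. Tools listed in the submitters' processing notes are cutadapt, Bowtie2, SAMtools, Picard, MACS2 and DiffBind, and also DESeq2 for Rbap46 and input, with build hg19. Their settings, the scaling between libraries and the test are not given in the sources used here. The authors' levels and folds are deposited log2 values (group means), and the p-value and FDR columns were deposited with them and used as given. The deposited fold equals shControl minus shHAT1 within 0.01. The number of sites tested was derived from the rank relation of p-value and FDR as 12047 to 12049 for H3K9ac and 80824 to 80834 for Rbap46.

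Wide sites were those above the smallest width. Overlap meant at least 1 bp. Medians and shares were compared within 10 bins (deciles) of shControl level, weighted by the number of wide sites. Within each width, sites with and without Rbap46 were compared in 5 bins, weighted by sites with Rbap46. Python 3.11 with numpy 2.4.6, pandas 2.3.3 and matplotlib 3.10.9 was used, and the matching was tested on simulated data. Named sites were 3 each by width (widest and just above 501 bp), shControl level, loss, rise, FDR and number of Rbap46 sites, plus all wide sites that rose. Members and lists were chosen with earlier results of these data known.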

Additional observations from a re-analysis of the deposited data

How the results depend on the processing

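The number of wide sites, 472, was the same with a width of at least 1.5 times 501 bp, fell to 157 at FDR under 0.05 and was 43 above 1002 bp. Those lower in shHAT1 numbered 155 at FDR under 0.05. Each of these limits removes sites by construction. The difference in shControl level, 0.395, reversed to -0.55 per 501 bp of length, and was 0.34 to 0.39 under the 3 other alternatives. The level-matched difference in H3K9ac change, 0.012, had no stable sign. It was -0.0025 with deciles of the overall level, -0.0012 with 20 bins, -0.0095 at FDR under 0.05, -0.0010 with neighbours within 100 kb counted once and 0.0034 without the region of chromosome 6. It was 0.035 without matching and 0.106 when matched on level per 501 bp, and the cause was not tested. The level-matched difference in overlap, 5.39 percentage points, was 27.4 when at least 50% of the Rbap46 site had to overlap, which a longer site meets more easily. It was 18.6 when matched on level per 501 bp and 9.90 without matching. The ratio of Rbap46 sites per site, 1.17, was 0.604 per kb, a measure that favours shorter sites when overlap counts from 1 bp. The difference in central Rbap46 position, 17.0 percentage points, was 29.2 when matched on level per 501 bp and 12.8 with Rbap46 sites of a log2 fold of at least 1. The alternatives for the central position and for sites without Rbap46 were chosen after seeing the data, as were those without chromosomes 9 and 22 and the overlap without matching. No paired analysis was possible because each column is a mean over libraries, and leaving out a library could not be run either.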

Other observations

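Rbap46 sites were seldom wide themselves. Of 30418 Rbap46 sites above input, 489 or 1.61% were wider than 501 bp, against 21.5% of H3K9ac sites. A wide Rbap46 site overlapped 13 of 472 wide H3K9ac sites (2.75%) and 28 of 1719 sites of 501 bp (1.63%). In the 20 wide H3K9ac sites with 2 Rbap46 sites, the centres of the pair were 501 to 1082 bp apart, with a median of 693 bp. They lay on either side of the site centre in 20 of 20. In the 22 sites of 501 bp with 2, they were 523 to 934 bp apart, with a median of 724 bp, and on either side in 22 of 22. Separate Rbap46 sites of at least 501 bp leave little room for any other placement, so this is no finding about wide sites.

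The share of overlap had no single trend with width among wide sites, and was not matched on level here. Rbap46 overlapped 85.0% of sites up to 900 bp, 87.9% from 901 to 950 bp, 82.0% from 951 to 1000 bp and 74.4% from 1089 bp. The median H3K9ac difference in these classes was -0.755, -0.72, -0.755 and -0.78, and their median shControl level was 9.355, 9.55, 9.69 and 9.59.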
